A study of Mus musculus with 14 samples.

Results

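The histone genes described here are the 58 genes, of 24675 named on the array, whose symbols begin with those of the H1, H2A, H2B, H3 or H4 genes or of the H2ab, H2ax, H2az, H2aj or H3f3 variants. The symbols alone chose them, without regard to level. They include 43 genes of the replication-dependent clusters and 15 genes of variants or of testis and oocyte histones. By class they are 10 H1, 18 H2A, 13 H2B, 9 H3 and 8 H4 genes. In the mouse genome 41 of them lie on chromosome 13 and 6 on chromosome 3, which hold the large histone clusters.

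RNA was profiled on 14 Affymetrix Mouse Gene 2.0 ST arrays, each from crypt cells sorted from an individual mouse. All mice carried Lgr5-EGFP-IRES-CreERT2, which marks cells that express Lgr5 with EGFP and gives them a Cre that tamoxifen activates. All mice were given tamoxifen for 5 days and were killed 1 month later, and the labels give no age. They give 1 ng of total RNA for every sample. The groups were Atg7KO-High (Atg7(fl/fl) mice, EGFP high gate, n = 3), WT-High (mice without the floxed alleles, EGFP high gate, n = 3), Atg7KO-Low (n = 4) and WT-Low (n = 4). The labels call the CD24-low, EGFP high cells stem cells and the CD24-low, EGFP low cells transit amplifying cells. Cre is made only where Lgr5 is expressed, so Atg7 is deleted in such cells and inherited as deleted by their descendants, and a sorted sample can hold cells that kept Atg7. Single arrays are written as the group followed by the number from the title, as in WT-Low-411.

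Histones package DNA into nucleosomes, each made of H2A, H2B, H3 and H4, and H1 binds the linker DNA between them. The cluster genes are transcribed mainly in S phase, when new DNA has to be packaged. Their mRNAs usually end in a stem-loop that the protein SLBP binds, and not in a poly(A) tail. Some cluster genes can also give polyadenylated mRNA, mostly in cells that have left the cycle. Replacement variants such as H2A.Z and the products of H3f3a and H3f3b are made throughout the cycle from polyadenylated mRNAs. In crypts, both Lgr5 stem cells and transit amplifying cells divide. Many H2A, H2B, H3 and H4 genes are near-identical copies, so a probe set can also bind mRNA of its relatives, and the value of a single cluster gene is uncertain to that degree.

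The labels held on the arrays. Atg7, needed to form autophagosomes, read 5.65 to 6.37 on the 7 Atg7KO arrays and 6.46 to 7.49 on the 7 WT arrays, on the log2 scale of the deposited values that is used for all levels below. Lgr5 read 8.69 to 9.30 on the 6 EGFP high arrays and 4.65 to 6.25 on the 8 EGFP low arrays. Markers of goblet, Paneth, enterocyte and enteroendocrine cells were present in every group. Markers of leukocytes, stroma and tuft cells were mixed. Ptprc (leukocytes), Col3a1 and Dcn (stroma) and Dclk1 (tuft cells) were below the detection threshold on all 14 arrays. Itgam (leukocytes), Col1a1, Pecam1 and Acta2 (stroma and vessel) and Trpm5 (tuft cells) reached it on all 14. Pou2f3 (tuft cells) reached it on 11 arrays, Cd3e (leukocytes) on 6 and Cd79a (leukocytes) on 1. A low share of these cells in the samples was therefore not excluded. The SD over all probe sets was narrowest on Atg7KO-High-356 and WT-Low-411, at 1.90 each.

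Proximal promoter sequence is shown for 5 members that carry the results: H2bc15, which differed between the gates, H2bc13, which varied little, H2ac6 and H2ac4, which varied most from array to array within their class, and H2ab1, the X-linked variant. The sequences are from RefSeq, assembly GRCm38.p6, and run 5′ to 3′ on the gene's strand up to the base before its start. Capitals mark the octamer ATTTGCAT or its reverse complement ATGCAAAT, the CCAAT box or its reverse complement ATTGG, and the TATA box TATAAA or its reverse complement TTTATA.
H2bc15, chr13:21753913-21754075, plus strand: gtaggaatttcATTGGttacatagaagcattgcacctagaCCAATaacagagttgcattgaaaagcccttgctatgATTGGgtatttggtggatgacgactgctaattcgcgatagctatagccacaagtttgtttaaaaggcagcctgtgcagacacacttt
H2bc13, chr13:21716184-21716383, minus strand: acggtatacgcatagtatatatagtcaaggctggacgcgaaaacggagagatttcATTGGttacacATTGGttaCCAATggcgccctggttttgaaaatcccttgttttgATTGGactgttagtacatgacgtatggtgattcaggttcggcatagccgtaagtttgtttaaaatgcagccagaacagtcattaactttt
H2ac6, chr13:23683960-23684159, minus strand: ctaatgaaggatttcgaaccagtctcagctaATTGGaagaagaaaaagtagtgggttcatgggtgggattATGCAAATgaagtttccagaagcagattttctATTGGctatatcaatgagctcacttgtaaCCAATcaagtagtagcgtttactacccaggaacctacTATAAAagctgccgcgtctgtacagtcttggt
H2ac4, chr13:23750888-23751087, plus strand: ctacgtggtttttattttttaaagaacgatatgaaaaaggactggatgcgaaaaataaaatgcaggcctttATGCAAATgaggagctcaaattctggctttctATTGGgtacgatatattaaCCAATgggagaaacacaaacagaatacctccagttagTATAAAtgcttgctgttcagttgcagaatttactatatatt
H2ab1, chrX:117014557-117014756, plus strand: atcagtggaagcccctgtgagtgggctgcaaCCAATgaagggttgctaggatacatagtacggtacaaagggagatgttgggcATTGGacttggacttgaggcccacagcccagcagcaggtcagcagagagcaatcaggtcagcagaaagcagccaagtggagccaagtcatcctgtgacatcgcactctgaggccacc
H2bc15 is shown as the 163 bases between its own start and that of H2ac15, a divergently transcribed H2A gene, and the other stretches are 200 bases long. The H2ac6 and H2ac4 stretches each hold 1 octamer, an element that the POU factor Oct-1 binds in H2B promoters. The H2bc13 and H2bc15 stretches hold 4 and 3 CCAAT boxes and no exact octamer or TATA box. The H2ab1 stretch holds 2 CCAAT boxes only.

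In RefSeq, 52 of the 58 members had a promoter entry, with 53 windows among them. In the 250 bases before the start, and counting both strands, 13 of these windows (24.53%) held an octamer, compared with 1.601% of all 32851 promoter windows. The octamer was in 6 of 17 H2A windows, 6 of 12 H2B windows, 1 of 7 H3 windows (that of H3f3b), 0 of 9 H1 windows and 0 of 8 H4 windows. A CCAAT box was in 45 of the 53 windows (84.91%) and in 33.85% of all windows. Every H2A, H2B and H3 window held a CCAAT box, as did 7 of 9 H1 and 2 of 8 H4 windows. TATAAA was in 24 windows (45.28%), against 12.37% of all windows. Windows of divergent genes can overlap, as for H2ac12 and H2bc12, with 177 bases between their starts. An element there can count for both genes, and H2bc6 had more than 1 window, so the windows are not all separate. These counts describe letters in a window and say nothing of which factors were bound.

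Of the 58 members, 40 passed the detection filter, which required a value at or above the 40th percentile of the array (3.75 to 3.98) on at least 3 arrays. These 40 included 30 cluster and 10 variant genes. Among them 29 were above the threshold on all 14 arrays and 11 on 3 to 13 arrays. The 18 members that did not pass had means of 2.12 to 3.61, and 14 of them were above the threshold on no array. By class, 7 of 10 H1, 15 of 18 H2A, 10 of 13 H2B, 4 of 9 H3 and 4 of 8 H4 genes passed. The untested members include the testis linker histones H1f6 and H1f7 and the testis H2B gene H2bc1, but also cluster genes such as H3c4, H3c7, H3c8 and H4c8.

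**Figure D1:**
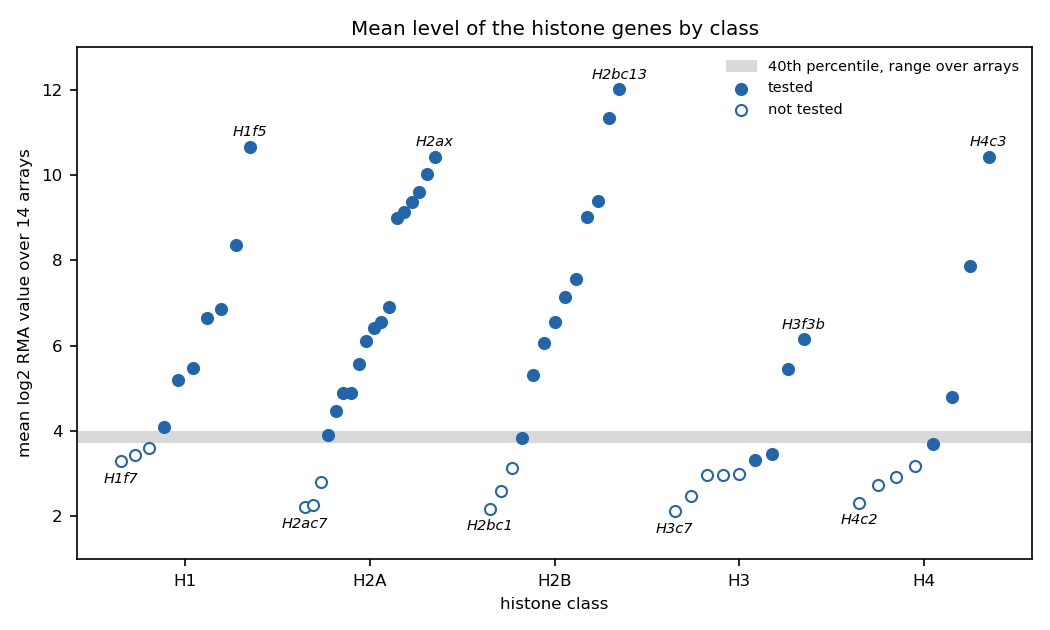
Mean log2 value of each of the 58 histone genes over the 14 arrays, by class, with filled points for the 40 genes tested and open points for the 18 not tested. The grey band is the range of the detection threshold over the arrays, 3.75 to 3.98. Each class has members both in or below the band and well above it.

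Probe sets differ in how strongly they bind, so the levels of different genes are given only to show where each lay on the array scale. In every class the members ran from below or near the threshold to well above it. Over the 14 arrays the means ran between 3.29 (H1f7) and 10.7 (H1f5) for H1, between 2.22 (H2ac7) and 10.4 (H2ax) for H2A, and between 2.18 (H2bc1) and 12.0 (H2bc13) for H2B. They ran between 2.12 (H3c7) and 6.15 (H3f3b) for H3, and between 2.32 (H4c2) and 10.4 (H4c3) for H4. In all, 23 members averaged below 4, 22 between 4 and 8, and 13 at 8 or above.

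Several members read nearly the same on every array. H3f3b, which encodes the H3 replacement variant, read 6.00 to 6.31 over the 14 arrays. H2bc13, an H2B cluster gene, read 11.71 to 12.16, and H4c3, an H4 cluster gene, 10.02 to 10.74. H3f3a, which encodes the same protein as H3f3b, was below the threshold on all 14 arrays, with means of 2.98 in Atg7KO-High, 3.41 in WT-High, 3.02 in Atg7KO-Low and 2.69 in WT-Low.

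The clearest difference among histone genes was between the gates, in H2bc4, an H2B cluster gene on chromosome 13. In the Atg7KO mice H2bc4 read 8.90, 8.59 and 8.54 in EGFP high cells and 9.42, 9.47, 9.90 and 9.40 in EGFP low cells. In the WT mice it read 8.44, 8.36 and 8.43 in EGFP high cells and 9.11, 9.33, 9.03 and 9.37 in EGFP low cells. All 6 EGFP high arrays (8.36 to 8.90) lay below all 8 EGFP low arrays (9.03 to 9.90). H2bc4 was lower in EGFP high cells by a log2 difference of -0.87 in Atg7KO mice (SE 0.16, 0.548-fold, adjusted p = 0.00382) and of -0.80 in WT mice (SE 0.16, 0.574-fold, adjusted p = 0.0168). These are limma's moderated tests with Benjamini-Hochberg adjustment over the 15873 genes tested, as for every adjusted p here. The 2 differences were themselves apart by -0.07 (95% interval -0.54 to 0.41). The WT call was lost without any 1 of the WT-High arrays: adjusted p was 0.0585 without WT-High-388, 0.0791 without WT-High-411 and 0.0680 without WT-High-412, with the difference at -0.82, -0.78 and -0.81.

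Markers of differentiated cells were also lower in EGFP high cells. The 6 goblet cell markers were all lower in EGFP high cells in both genotypes, with 6 called in Atg7KO and 5 in WT mice. Their mean level was 8.64 to 10.5 in Atg7KO-High, 10.0 to 10.7 in WT-High, 11.6 to 11.9 in Atg7KO-Low and 11.7 to 12.2 in WT-Low. The 5 Paneth, 5 enterocyte and 4 enteroendocrine markers all had negative differences in both genotypes, with 4, 4 and 3 called in Atg7KO mice and 0 of each called in WT mice (2, 3 and 4 at an unadjusted p under 0.05). The mean level of the enterocyte markers was 7.12 to 7.52 in Atg7KO-High, 7.36 to 9.15 in WT-High, 8.59 to 10.2 in Atg7KO-Low and 8.90 to 9.78 in WT-Low. That of the enteroendocrine markers was 5.73 to 8.13 in Atg7KO-High, 7.12 to 7.31 in WT-High, 8.09 to 9.57 in Atg7KO-Low and 8.28 to 9.10 in WT-Low. Paneth markers averaged 8.29 to 9.53 in Atg7KO-High, 10.1 to 11.0 in WT-High, 10.2 to 10.9 in Atg7KO-Low and 10.6 to 11.8 in WT-Low. Among all tested genes 6.44% were called lower in EGFP high cells in Atg7KO mice and 1.22% in WT mice. Without adjustment 5.91% were lower in WT mice. The part of the differentiated cells in the H2bc4 and H2bc15 differences was not tested. In sorted populations such as these, fewer cells of a type and less RNA per cell cannot be told apart.

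H2bc15, another H2B cluster gene on chromosome 13, ran the other way between the gates. In the Atg7KO mice it read 12.04, 11.85 and 11.67 in EGFP high cells and 11.42, 11.16, 10.05 and 10.57 in EGFP low cells. In the WT mice it read 11.67, 11.80 and 11.76 in EGFP high cells and 11.30, 11.27, 11.38 and 10.70 in EGFP low cells. In both genotypes the EGFP high arrays lay above all EGFP low arrays. H2bc15 was higher in EGFP high cells by 1.06 in Atg7KO mice (SE 0.27, 2.08-fold, adjusted p = 0.0221). In WT mice the difference was 0.58 (SE 0.27, 95% interval 0.01 to 1.15), which did not pass (adjusted p = 0.330). The 2 differences were apart by 0.48 (95% interval -0.34 to 1.29, adjusted p = 0.573), so a difference between the genotypes was not shown. The call in Atg7KO mice was lost without Atg7KO-High-356 (0.96, adjusted p = 0.0939), Atg7KO-High-348 (1.06, adjusted p = 0.0687) or Atg7KO-Low-386 (0.98, adjusted p = 0.0593), and when only the groups compared were fitted (adjusted p = 0.0750).

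**Figure D2:**
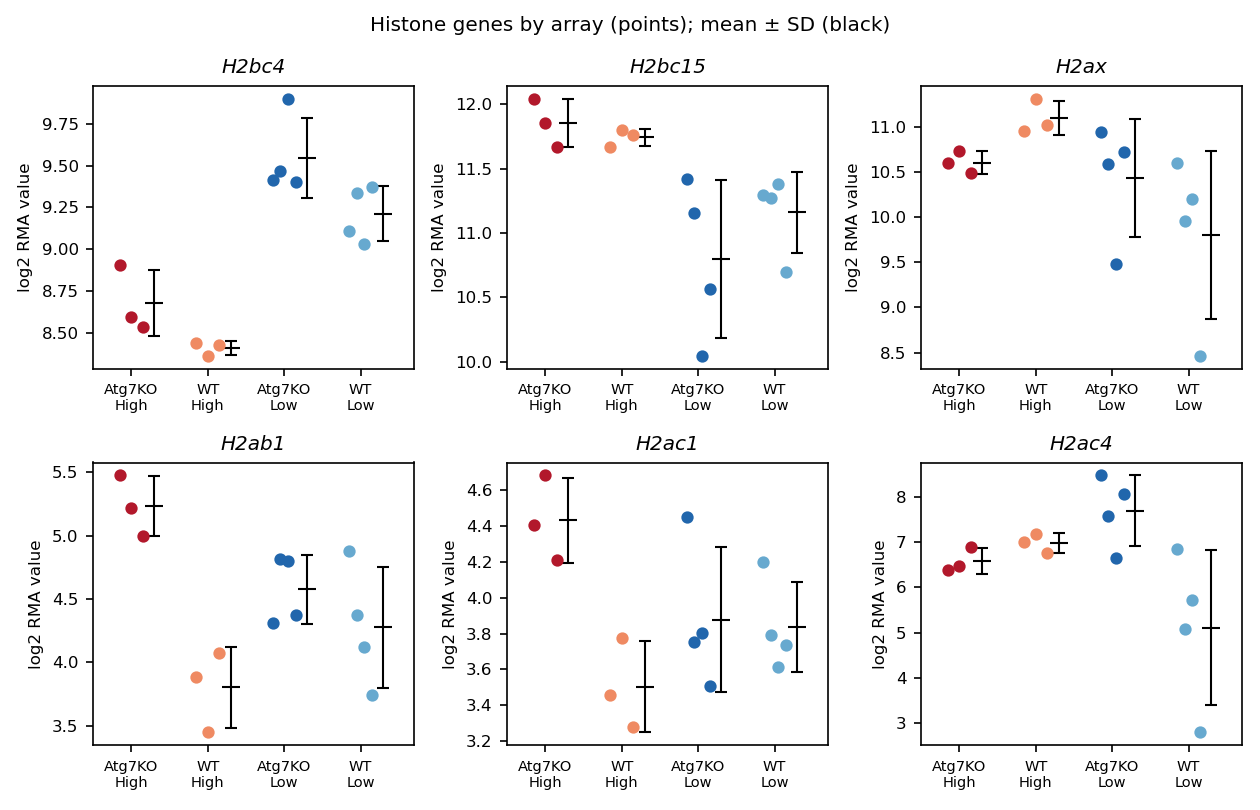
Log2 values of histone genes named in the text on each array (points) in the 4 groups, with the mean and SD of each group in black. H2bc4 is lower and H2bc15 higher on the EGFP high arrays than on the EGFP low arrays of each genotype, and the 3 Atg7KO-High arrays are the highest of all for H2ab1.

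These were the only called histone genes between the gates. In Atg7KO mice 2 of the 40 tested members were called, 1 in each direction, where 10.9% of all tested genes were called (4.48% higher and 6.44% lower). In WT mice 1 of 40 was called, where 2.44% of all tested genes were called (1.22% in each direction). Without adjustment, 4 members were higher and 2 lower at p under 0.05 in Atg7KO mice, where 27% of all genes passed (12.6% higher and 14.4% lower). In WT mice 6 were higher and 2 lower, where 14.8% of all genes passed (8.88% higher and 5.91% lower). The arrays of the gates did not overlap for 3 higher and 2 lower members in Atg7KO mice (10.8% and 11.8% of all genes) and for 7 higher and 2 lower members in WT mice (9.97% and 6.52% of all genes). The median difference between the gates was 0.06 over the members and 0.02 over all genes in Atg7KO mice, and 0.11 and 0.03 in WT mice.

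By class, in WT mice the 7 tested H1 genes all had positive differences in EGFP high cells, with a median of 0.54, though none was called and none had an unadjusted p under 0.05. Without WT-Low-411 the count was 6 of 7 and the median 0.44. In Atg7KO mice 5 of 7 H1 genes had positive differences, with a median of 0.12. Among the 4 tested H4 genes, 3 had negative differences in each genotype, with medians of -0.26 in Atg7KO and -0.39 in WT mice, and 0 were called in either (unadjusted p under 0.05 for 0 in Atg7KO and 1 in WT mice).

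Of the other members, H2ax, whose protein is phosphorylated at DNA double-strand breaks, had the next smallest p in WT mice. It read 10.95, 11.31 and 11.02 in WT-High and 10.60, 9.96, 10.20 and 8.47 in WT-Low. The WT-High arrays lay above the WT-Low arrays, but the difference of 1.29 (SE 0.41) did not pass (adjusted p = 0.129), and it was 0.84 without WT-Low-411, where it did not pass either. In the Atg7KO mice H2ax read 10.59, 10.73 and 10.48 in EGFP high cells and 10.94, 10.58, 9.48 and 10.72 in EGFP low cells, which overlapped (difference 0.17). H4c12, an H4 cluster gene, read 7.79, 7.28 and 7.28 in WT-High and 8.09, 7.71, 8.22 and 7.93 in WT-Low, a difference of -0.54 (SE 0.18, adjusted p = 0.155). With the arrays weighted by their quality, H2ax (adjusted p = 0.0419) and H4c12 (adjusted p = 0.0291) were called in WT mice.

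Loss of Atg7 in the EGFP high cells was compared next, and no histone gene was called. Each group of arrays enters a comparison of gates and a comparison of genotypes, so these comparisons share samples. Without adjustment 4 of the 40 had p under 0.05: H2ab1, H2ac1 and H2az1 were the higher ones, and H2bc18 the lower. The adjusted threshold was passed by 0 members and by 0.0126% of all genes (2 of 15873), and the unadjusted one by 15.9% of all genes (5.99% higher and 9.88% lower). The members had 26 positive and 14 negative differences and a median of 0.08, where the median over all genes was -0.03. The arrays of the 2 groups did not overlap for 5 members in the higher and 3 in the lower direction, where 10.2% and 15.2% of all genes, 25.3% together, did so.

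H2ab1 had the largest difference of these and the smallest p. It encodes H2A.B, a short H2A variant known mainly from the testis, and its gene lies on the X chromosome. It read 5.48, 5.22 and 5.00 in Atg7KO-High and 3.89, 3.45 and 4.07 in WT-High. In EGFP low cells it read 4.31, 4.81, 4.80 and 4.37 in Atg7KO mice and 4.88, 4.37, 4.12 and 3.74 in WT mice. The 3 Atg7KO-High arrays lay above the 11 others, of which the highest read 4.88. H2ab1 was above the detection threshold on 2 of 3 WT-High arrays and 3 of 4 WT-Low arrays, and on all 7 Atg7KO arrays. The difference in EGFP high cells was 1.43 (SE 0.26, 95% interval 0.87 to 1.99, 2.70-fold), with an adjusted p of 0.0993. In EGFP low cells it was 0.30 (adjusted p = 0.809). The contrast of the knockout difference, EGFP high minus EGFP low, was 1.13 (SE 0.35, adjusted p = 0.242). Between the gates H2ab1 differed by 0.66 in Atg7KO mice (adjusted p = 0.0982) and by -0.48 in WT mice (adjusted p = 0.394). With array weights H2ab1 was called (1.34, adjusted p = 0.0197), as was H2ac1 (1.05, adjusted p = 0.0257), under a setting that called 703 of all genes. H2ab2, a close relative of H2ab1 that also lies on the X chromosome, averaged 4.87 in Atg7KO-High, 4.78 in WT-High, 5.09 in Atg7KO-Low and 4.83 in WT-Low.

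H2ac1, the H2A gene known from the testis, read 4.41, 4.68 and 4.21 in Atg7KO-High and 3.46, 3.78 and 3.28 in WT-High. It was above the detection threshold on all 3 Atg7KO-High arrays and on 0 WT-High arrays. With the WT-High values set at the threshold, the mean of H2ac1 was 1.54-fold higher in Atg7KO-High, a figure that carries no sampling error. The measured means were 4.43 in Atg7KO-High and 3.50 in WT-High, and the fitted difference of 0.93 (SE 0.23) did not pass (adjusted p = 0.133). H2az1, a gene of the variant H2A.Z that is found at promoters, read 5.12, 4.98 and 5.08 in Atg7KO-High and 4.80, 4.77 and 4.24 in WT-High, a difference of 0.46 (SE 0.18, adjusted p = 0.256). The other H2A.Z gene, H2az2, averaged 9.59 in Atg7KO-High and 9.56 in WT-High. Among the cluster genes, H2bc18 read 7.45, 6.62 and 6.73 in Atg7KO-High and 7.70, 7.96 and 7.63 in WT-High, a difference of -0.83 (SE 0.34, adjusted p = 0.265). H2ax read lower on every Atg7KO-High array than on any WT-High array, with a difference of -0.49 (adjusted p = 0.603).

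Paneth cell markers also differed in level between these groups: the mean over the 5 markers was 8.29 to 9.53 in Atg7KO-High and 10.1 to 11.0 in WT-High, with 0 of the 5 called and 4 lower at an unadjusted p under 0.05. Goblet markers had 0 of 6 called and 4 lower without adjustment. The 5 enterocyte markers all had negative differences (median -0.85), with 0 called and 2 at an unadjusted p under 0.05. In this comparison 9.88% of all tested genes were lower at an unadjusted p under 0.05. The part of these cell types in the histone differences was not tested.

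**Figure D3:**
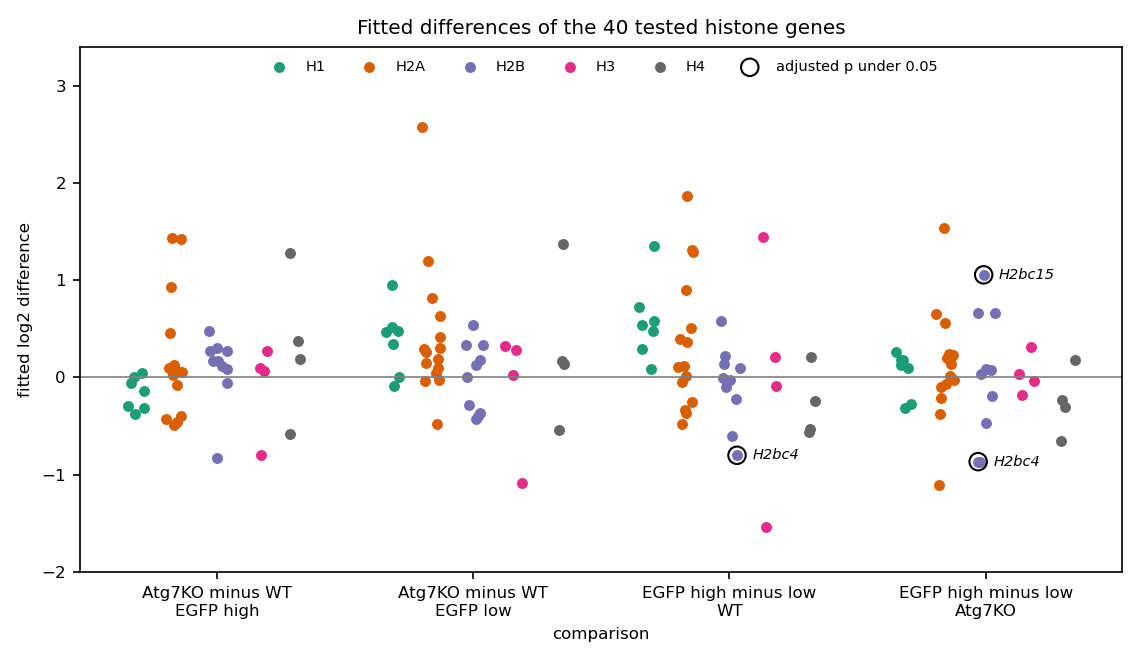
Fitted log2 difference of each of the 40 tested histone genes (points, coloured by class) in 4 comparisons, with circles around the genes at adjusted p under 0.05. The circled points are H2bc4 in both comparisons of the gates and H2bc15 in that of the Atg7KO mice, and the knockout comparisons have no circled point.

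In the EGFP low cells loss of Atg7 likewise gave 0 called histone genes, where 0.0063% of all genes (1 of 15873) were called. Without adjustment 4 members, all higher, had p under 0.05 (H2ac4, H4c9, H2aj and H2bc4), and 7.26% of all genes did (3.86% higher and 3.4% lower). The members had 29 positive and 11 negative differences, with a median of 0.18 against 0.00 over all genes, and 0.11 without WT-Low-411. H2bc4 was the only member whose arrays did not overlap, at 9.40 to 9.90 in Atg7KO-Low and 9.03 to 9.37 in WT-Low, where 3.4% of all genes did not overlap (1.71% higher and 1.69% lower).

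H2ac4, an H2A cluster gene, had the largest of these differences. It read 8.47, 7.58, 6.65 and 8.05 in Atg7KO-Low and 6.85, 5.08, 5.73 and 2.81 in WT-Low. The groups overlapped, because Atg7KO-Low-387 (6.65) read below WT-Low-341 (6.85). The difference was 2.57 (SE 0.62, 5.95-fold, adjusted p = 0.461), and 1.80 without WT-Low-411 (adjusted p = 0.422 when the genes tested were chosen anew). In EGFP high cells it read 6.37, 6.46 and 6.90 in Atg7KO mice and 7.00, 7.18 and 6.75 in WT mice, a difference of -0.40. The contrast of the knockout difference, EGFP high minus EGFP low, was -2.97 (SE 0.94) and did not pass either (adjusted p = 0.252). It was -2.20 without WT-Low-411 and -0.97 with the array SD as a covariate.

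H4c9, an H4 cluster gene, read 5.25, 4.95, 7.09 and 5.66 in Atg7KO-Low and 4.83, 5.72, 3.42 and 3.48 in WT-Low, where 2 of the 4 arrays were above the threshold. Its difference of 1.38 (SE 0.55, adjusted p = 0.657) in EGFP low cells stood beside 1.28 in EGFP high cells (adjusted p = 0.339), where 1 of 3 WT-High arrays was above the threshold. H2aj, a variant of H2A, read 6.49, 6.81, 6.53 and 6.45 in Atg7KO-Low and 6.41, 6.53, 5.81 and 5.85 in WT-Low, a difference of 0.42 (SE 0.17, adjusted p = 0.662). For the contrast of the knockout effect between the gates, 0 members were called, where 0.0063% of all genes were, and 2 in each direction had an unadjusted p under 0.05, where 14% of all genes did (5.53% higher and 8.49% lower).

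The spread between arrays of the same group was wide for many cluster genes. Every sample was 1 ng of total RNA, and the part of this small input in the spread was not tested. The median within-group SD, pooled over the 4 groups, was 0.49 over the 30 tested cluster genes, 0.25 over the 10 variants, 0.41 over all 40 members and 0.26 over all tested genes. It exceeded 1 for 5 of the 40 members (12.5%), compared with 78 of 15873 genes (0.491%). These 5 of the 30 cluster genes were H2ac6 at 1.52, H2bc12 at 1.32, H3c1 at 1.28, H1f2 at 1.23 and H2ac4 at 1.04.

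H2ac6 read 5.60, 8.80 and 6.92 in Atg7KO-High, 5.28, 6.17 and 5.60 in WT-High, 7.47, 6.52, 2.90 and 5.39 in Atg7KO-Low, and 4.87, 5.18, 5.16 and 2.26 in WT-Low. Its difference between the gates was 1.54 in Atg7KO mice and 1.32 in WT mice, with adjusted p of 0.334 and 0.581. H2ac6 lies next to H2bc4, with 239 bases between the 2 genes in the annotation. Its differences between the gates had the opposite sign to those of H2bc4 but were not called. Between genotypes both genes had positive differences that were not called. They were 1.42 for H2ac6 and 0.27 for H2bc4 in EGFP high cells, and 1.20 and 0.33 in EGFP low cells. H2bc12 read 10.68 on Atg7KO-Low-356 and 6.00 to 8.00 on the 13 others. H3c1 read 6.47 on WT-Low-407, and H1f2 ran between 3.80 on WT-Low-411 and 8.81 on Atg7KO-Low-356. In each of these genes the extremes were on a few arrays. The SD in Atg7KO-High, WT-High, Atg7KO-Low and WT-Low was 0.48, 0.38, 1.48 and 1.60 for H1f2. In the same order it was 0.71, 0.31, 2.17 and 0.82 for H2bc12, and 1.13, 0.50, 0.79 and 1.96 for H3c1. For H2ac6 it was 1.61, 0.45, 1.97 and 1.41. The WT-High arrays lay above all WT-Low arrays for H2ac6, as they did for 9.97% of all genes.

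**Figure D4:**
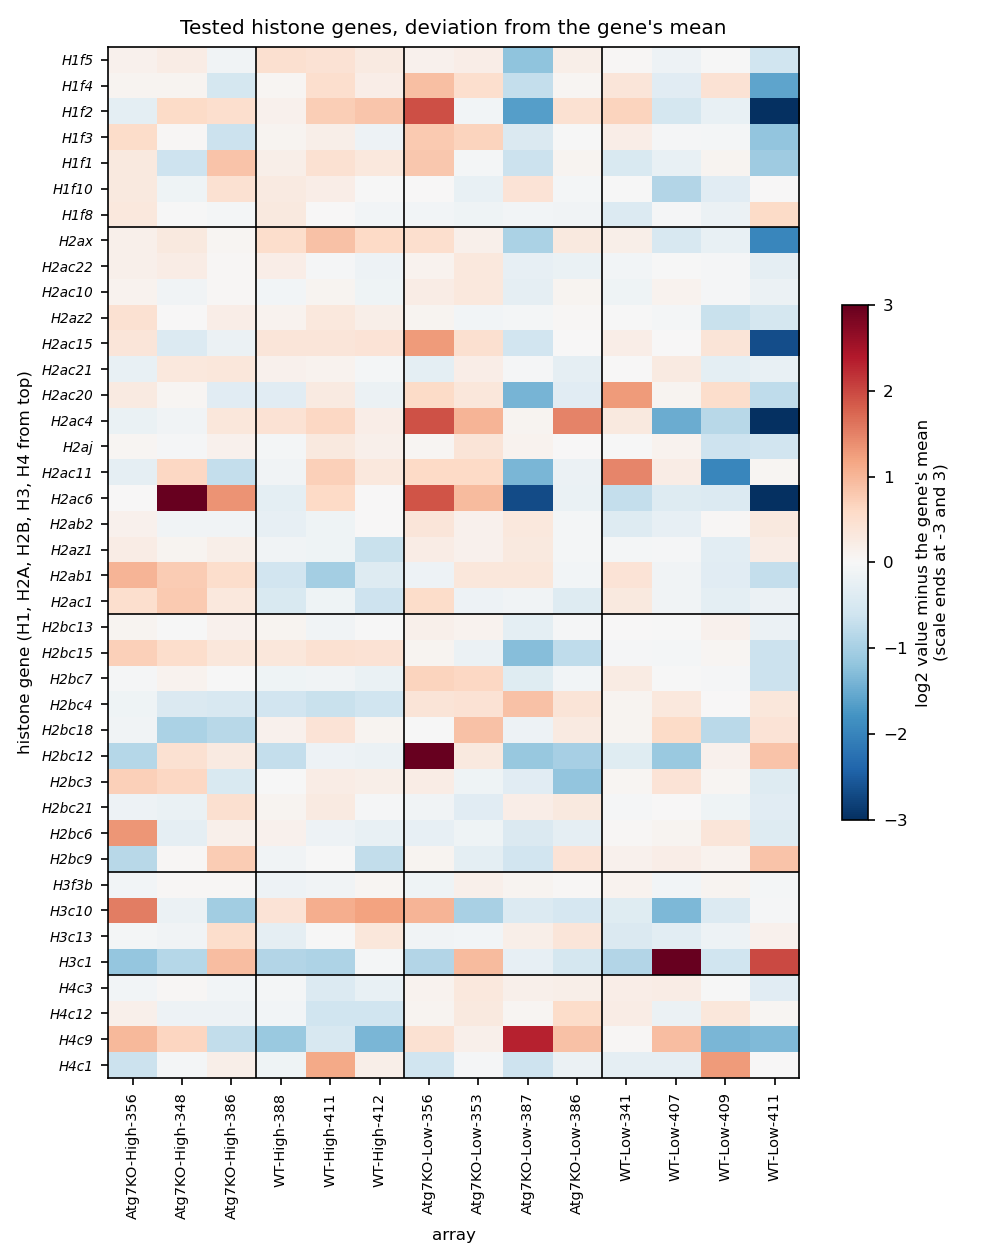
Log2 value of each tested histone gene on each array minus the gene's mean over the 14 arrays, by colour, with genes in rows by class and arrays in columns by group. The columns of WT-Low-411 and Atg7KO-Low-387 hold low values for many H1 and H2A cluster genes at once.

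Low values of H1 and H2A cluster genes came together on particular arrays. WT-Low-411 held the lowest value of 11 of the 40 members, including 8 of the 13 tested H1 and H2A cluster genes, and Atg7KO-Low-387 the lowest of 7. Atg7KO-Low-356 held the highest value of 9 members. The mean over the cluster H1 genes was 6.68 on Atg7KO-Low-387, 6.10 on WT-Low-411 and 7.35 to 8.52 on the others. The same mean for cluster H2A genes was 7.05 on Atg7KO-Low-387, 6.48 on WT-Low-411 and 7.53 to 8.65 elsewhere. The other classes were not low throughout. The cluster H2B mean was 7.47 on Atg7KO-Low-387, the lowest of all arrays, and 7.82 on WT-Low-411. For cluster H3 it was 3.92 on Atg7KO-Low-387 and 4.76 on WT-Low-411, the highest of all arrays. For cluster H4 it was 7.17 on Atg7KO-Low-387, the highest of all arrays, and 6.30 on WT-Low-411. Without both arrays 2 of 40 members (5%) had a pooled SD over 1, compared with 0.372% of all genes, and the medians were 0.30 and 0.24. WT-Low-411 also stood out beyond the histones. Of all arrays it had the lowest mean over the Lgr5 stem cell markers (6.52) and epithelium markers (9.39). It had the highest over the Paneth (11.8) and tuft markers (4.76). Its goblet, enterocyte and enteroendocrine means lay within the range of the others. The part of this in its histone values was not tested.

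H2ac15 and H2bc15 share the promoter stretch printed above. H2ac15 read 10.42, 9.63, 8.56 and 9.14 in Atg7KO-Low and 9.33, 9.14, 9.51 and 6.48 in WT-Low, so WT-Low-411 was the low array here too. In EGFP high cells H2ac15 read 9.49, 8.72 and 8.95 in Atg7KO mice and 9.49, 9.50 and 9.55 in WT mice. Between the gates H2ac15 differed by -0.38 in Atg7KO mice and 0.90 in WT mice, beside 1.06 and 0.58 for H2bc15. Among members with a promoter entry, 5 divergent pairs had starts less than 1000 bases apart. This was the only one of them with both genes tested. H2bc4 had no promoter entry, so H2bc4 and its neighbour H2ac6, both tested, could not be counted as a pair.

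S phase genes were counted because cluster histone mRNA is made in that phase. The 32 tested S phase genes had 12 positive and 20 negative differences between the gates in Atg7KO mice (median -0.06, 0 called higher and 2 lower), and 31 positive and 1 negative in WT mice (median 0.46, 0 called, 16 higher at an unadjusted p under 0.05). Between genotypes in EGFP high cells 27 were negative, with a median of -0.44, 0 called and 14 lower at an unadjusted p under 0.05. In that comparison 9.88% of all tested genes were lower without adjustment. Between the gates 6.44% of all tested genes were called lower in Atg7KO mice, and 8.88% were higher without adjustment in WT mice. The mean level of the S phase genes was 6.95 to 7.23 in Atg7KO-High, 7.26 to 7.76 in WT-High, 6.99 to 7.36 in Atg7KO-Low and 6.89 to 7.32 in WT-Low. On Atg7KO-Low-387 and WT-Low-411, where cluster H1 and H2A values were low, the S phase mean was 6.99 and 7.05. The lowest S phase means were 6.89 on WT-Low-409 and 6.95 on Atg7KO-High-356. On those arrays the cluster H1 mean was 7.65 and 7.75 and the cluster H2A mean 7.53 and 7.89. The part of S phase in the histone values was not tested.

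Of the genes that process histone mRNA, 16 were tested, and 1 was called, between the gates in Atg7KO mice, where 10.9% of all tested genes were. This was Slbp, which encodes the stem-loop binding protein and is also on the S phase list. Slbp read 7.54, 7.52 and 7.51 in Atg7KO-High and 8.22, 8.07, 7.88 and 7.97 in Atg7KO-Low, with no overlap, and was lower in EGFP high cells by -0.51 (SE 0.13, adjusted p = 0.0244). In WT mice it read 8.15, 8.24 and 8.00 in EGFP high and 7.91, 7.82, 7.69 and 7.57 in EGFP low cells. All 3 Atg7KO-High arrays read below all WT-High arrays, but the difference of -0.61 (SE 0.14) did not pass (adjusted p = 0.131). The contrast of the knockout difference, EGFP high minus EGFP low, was -0.90 and did not pass either (SE 0.19, adjusted p = 0.176). The median over the 16 genes was -0.33 for Atg7KO against WT in EGFP high cells, with 3 positive and 13 negative differences and 0 called. The histone genes had a median of 0.08 in the same comparison.

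Of the histone chaperones, which hand histones to and from DNA, 21 were tested. Between the gates in Atg7KO mice 3 were called higher in EGFP high cells and 1 lower, where 4.48% and 6.44% of all tested genes were. The higher ones were Nap1l1, a carrier of H2A and H2B (0.63, SE 0.14, adjusted p = 0.0114), Atrx, which deposits the H3 replacement variant (0.62, adjusted p = 0.0328), and Hjurp, which deposits the centromeric H3 variant (0.63, adjusted p = 0.0408). The lower was Anp32e, which removes H2A.Z (-0.56, adjusted p = 0.0187). In WT mice Nap1l1 alone was called, and was higher in EGFP high cells by 1.00 (SE 0.14, adjusted p = 0.00265). There 1.22% of all tested genes were called higher. Between genotypes 0 chaperones were called in either gate. In EGFP high cells 18 of 21 read lower in Atg7KO than in WT mice on average (median -0.32). Of these, 5 had an unadjusted p under 0.05, where 9.88% of all tested genes were lower.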

How the data were processed

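RNA was measured on 14 arrays. The values deposited by the authors are on a log2 scale. Per the submitters' processing notes they come from RMA in Affymetrix Expression Console, with versions not given in the sources used. RMA makes the distributions of the arrays alike and can narrow large differences. The sequence of the probes was not used here. Arrays give no read depth, and their number limits the precision.

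Of 25429 probe sets, 24675 had 1 gene symbol, and each gene had 1 probe set. Testing was limited to the 15873 genes that reached an array's 40th percentile on 3 or more arrays. The model had a mean for each of the 4 groups, estimated from the 14 arrays together by limma 3.58.1 in R 4.3.3 (10 residual degrees of freedom, prior 4.54). P-values are two-sided, with Benjamini-Hochberg adjustment over all tested genes, and those with an adjusted p under 0.05 are termed called. A p-value rests on the spread between samples, each from an individual mouse. The samples were treated as independent, although those of the 2 gates that share a number may come from the same mouse. SE and 95% intervals come from this fit. The scripts were tested on simulated data.

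The members and gene lists were chosen with earlier results of these data known. The genes named with values are all called members, the 3 members of smallest p in each contrast, the replacement variants, and the members of highest and lowest mean in each class. H1f2, H2bc12, H3c1, H2ac6 and H2ac15 were named after their values were seen. List genes were named if called, or up to 3 by smallest p. Groups came from the sample titles. Promoter windows came from a RefSeq table on GRCm38.p6, matched by symbol or gene ID. Alternatives covered the groups fitted, the prior, array weights, renormalization, the filter, a replicate block, the array SD and leaving out arrays.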

Additional observations from a re-analysis of the deposited data

Results flagged for a closer look

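Among the 23 named members and the 2 groups of 4 arrays, 46 sets of values were examined for an array standing apart from the others of its group, and 3 were found; chance gives about 1 in 20. H2bc4 read 9.90 on Atg7KO-Low-387, above 9.40 to 9.47 on the other Atg7KO-Low arrays. H2bc15 read 10.7 on WT-Low-411, below the other WT-Low arrays. H1f5, an H1 cluster gene, read 9.44 on Atg7KO-Low-387, below the other Atg7KO-Low arrays.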

How the results depend on the processing

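The count of called histone genes between the gates was 1 in Atg7KO mice and 2 in WT mice when only the groups compared were fitted, against 2 and 1 over all 14 arrays, and 1027 and 373 of all genes were called. Array weights gave 2 called genes for Atg7KO against WT in EGFP high cells and 4 between the gates in WT mice. Over all tested genes these weights called 703 and 1201 genes in these comparisons, against 2 genes and 2.44% of the 15873 genes without weights. Without the 2 arrays of narrowest spread H2bc15 was no longer called between the gates in Atg7KO mice (0.96, adjusted p = 0.0682), which left 1 called gene, H2bc4, and 1110 of all genes. Leaving out single arrays gave 1 to 3 called genes in Atg7KO mice and 0 to 1 in WT mice between the gates, while 781 to 1742 and 103 to 345 of all genes were called. H2bc4 was called in all 18 alternatives in Atg7KO mice and in 15 of 18 in WT mice, and H2ab1 in 1 of 16 in EGFP high cells, with adjusted p of 0.0197 to 0.479. For Atg7KO against WT in EGFP low cells, and for the contrast of the knockout difference between the gates, 0 members were called under any alternative. The array SD as a covariate left the members' counts as they were, while 495 of all genes were called between the gates in Atg7KO mice, against 1734. Median centring moved the median of all genes to -0.14 and that of the histone genes to -0.02 for Atg7KO against WT in EGFP high cells, and the strict filter gave -0.16 and 0.05. Over all alternatives the members' median ran between -0.02 and 0.27 for that comparison, and no called result changed sign. The labels do not tie the sample numbers to mice, and the numbers were not taken to pair the samples, since not every shared number gave a correlation of deviations from the group means over 0.1. These correlations were 0.11 for Atg7KO-High-356 and Atg7KO-Low-356, 0.18 for Atg7KO-High-386 and Atg7KO-Low-386, and -0.04 for WT-High-411 and WT-Low-411, beside -0.17 to 0.16 for other pairs of the same genotype. They do not settle whether samples with a shared number came from the same mouse. With the number as a replicate block, 2 members were called between the gates in Atg7KO mice and 1 in WT mice, 0 for the knockout comparisons, and 1965 and 445 of all genes between the gates. Brightness close to the detection threshold limits what can be said of the 18 untested members and of the 11 tested members above it on 3 to 13 arrays, among them H2ac1, H2ab1, H4c9 and H2ac4.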
